A study of Mus musculus with 6 samples.

Results

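The UDP-glucuronosyltransferases (UGT), cytosolic sulfotransferases (SULT) and glutathione S-transferases (GST) were examined in mouse hepatocytes that received the transcription factor Sox4 by viral gene transfer. Members were found by gene symbol alone (the Ugt1, Ugt2, Ugt3 and Ugt8, Sult1 to Sult6, and Gst alpha, kappa, mu, omega, pi, theta and zeta series), which gave 66 genes of the 53599 rows of the count table. The families held 22 UGT, 21 SULT and 23 GST genes and are described separately. Microsomal GST genes and pseudogenes lay outside this rule.

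Mice received AAV8-TBG-HA-Sox4-P2A-Cre (the Sox4 group, 3 libraries) or the empty vector AAV8-TBG-Cre (the EV group, 3 libraries), and hepatocytes were harvested 4 days later by liberase digestion and Percoll enrichment. AAV8 is a viral vector that reaches the liver, and the TBG promoter restricts its cargo to hepatocytes. Cre is shared by both groups. The labels give the genotype of the EV samples as WT and of the Sox4 samples as Sox4, while the methods of the study describe male mice with a Cre-dependent Cas9-EGFP allele at Rosa26 on a C57BL/6J background for its vector experiments. Libraries are called EV 1 to EV 3 and Sox4 1 to Sox4 3 by their labelled replicate numbers. For its Sox4 vector experiments the methods give mice aged 4 to 8 weeks, and each group comprised 3 animals. The labels do not tie each library to an animal.

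These families carry out the conjugation step of detoxification, in which a large polar group is joined to bilirubin, bile acids, steroids, thyroid hormones, drugs or reactive electrophiles. UGT enzymes sit in the endoplasmic reticulum and mostly use UDP-glucuronic acid, SULT enzymes are cytosolic and use the sulfate donor PAPS, and GST enzymes use glutathione. Hepatocytes are the main site of conjugation, and the products leave through export pumps toward bile or blood.

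The libraries held 15090629 to 16964860 counts. Sox4 itself had 2, 0 and 3 counts in the EV libraries against 21697, 15097 and 11816 in the Sox4 libraries, and counts from the vector and the endogenous gene cannot be told apart. Levels are CPM, the counts a gene would have in a library of 1e06 once library sizes are scaled by the trimmed mean of M-values (TMM). A count of 3, taken as the floor, was 0.218 to 0.231 CPM in the EV libraries and 0.150 to 0.153 CPM in the Sox4 libraries. Of 12691 genes with enough counts to be tested, 6990 (55.1%) passed an adjusted p of 0.05, 29.0% as higher and 26.0% as lower in Sox4, so a large share of calls is the background against which the families are read. TMM left the median log2 fold change of all genes at 0.04, whereas library size alone put it at 0.51, and all changes below are on the TMM scale, given as a log2 fold change of Sox4 over EV ± its standard error (SE). The 8 hepatocyte markers had a sum of 112770 to 134980 CPM in EV against 80096 to 91393 CPM in Sox4, with 6 of 8 lower. Summed markers of other cells were low, at 27.5 to 43.7 CPM in EV against 72.6 to 85.2 CPM in Sox4 for cholangiocytes (Krt7, Krt19 and Tspan8 at 0 counts in EV) and 8.40 to 44.7 against 77.6 to 138 CPM for stellate cells. The corresponding ranges were 9.25 to 23.1 against 21.5 to 54.1 CPM for Kupffer cells, 13.9 to 20.7 against 10.8 to 25.1 CPM for endothelial cells and 1.16 to 2.20 against 2.31 to 6.13 CPM for blood cells. Most of the stellate sum came from Reln, at 7.09, 22.6 and 37.5 CPM in EV and 126, 117 and 50.8 CPM in Sox4. Of the 7 stellate markers 3 could be tested and 2 rose (Reln and Col3a1), beside 29.0% of all genes higher. The study reports that this gene transfer induced biliary markers, among them EPCAM, within hepatocyte-derived cells and repressed hepatocyte genes. A higher cholangiocyte sum therefore need not mean more cholangiocytes. The part of these marker shifts in the results below was not tested. In bulk RNA fewer cells of a type cannot be told apart from less RNA per cell or from changed expression within hepatocytes.

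The bases before the start sites of members on which the results turn are shown as the RefSeq annotation of GRCm38.p6 places them, a build other than the GRCm39 of the counts. A total of 3 sets of letters were searched on both strands of the 250 bases upstream of each start, and matches are in capitals. The SOX core was searched as ACAAAG. The HNF4A site was searched as CAAAGTCCA, which overlaps the SOX core in its leading letters. The core of the antioxidant response element, which NRF2 binds, was searched as TGACNNNGC. Ugt2b34 and Ugt2b1 are shown because these neighbours changed in opposite directions, and Sult2a8 because it fell most, at the more distant of its annotated starts. Ugt2a3, Gsta3, Gstp1 and Gstm7 are shown because they fell and held matches. Gstm7 is shown at the start whose window held matches, and another annotated start of this gene lies upstream of it. The windows lay at chr5:86906938-86907187 (Ugt2b34), chr5:86926504-86926753 (Ugt2b1), chr7:14446588-14446837 (Sult2a8), chr5:87337196-87337445 (Ugt2a3), chr19:4037913-4038162 (Gstp1) and chr3:107931615-107931864 (Gstm7), all on the minus strand, and chr1:21240335-21240584 (Gsta3) on the plus strand. Each is written 5′ to 3′ toward the gene.
Ugt2b34: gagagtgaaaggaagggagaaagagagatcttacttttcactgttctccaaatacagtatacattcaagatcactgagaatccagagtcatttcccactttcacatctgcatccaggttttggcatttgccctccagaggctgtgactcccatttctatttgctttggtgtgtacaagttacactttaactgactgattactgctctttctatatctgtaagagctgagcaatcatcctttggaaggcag
Ugt2b1: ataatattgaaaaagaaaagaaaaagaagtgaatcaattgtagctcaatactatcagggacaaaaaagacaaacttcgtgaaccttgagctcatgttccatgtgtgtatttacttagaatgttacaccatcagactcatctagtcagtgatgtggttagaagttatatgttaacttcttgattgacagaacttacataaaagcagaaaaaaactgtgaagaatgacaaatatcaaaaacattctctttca
Sult2a8: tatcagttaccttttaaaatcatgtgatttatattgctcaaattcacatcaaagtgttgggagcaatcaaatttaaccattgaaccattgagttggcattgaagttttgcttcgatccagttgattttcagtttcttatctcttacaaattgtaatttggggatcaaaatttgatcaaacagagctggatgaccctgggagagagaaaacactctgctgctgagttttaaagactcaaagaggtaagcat
Ugt2a3: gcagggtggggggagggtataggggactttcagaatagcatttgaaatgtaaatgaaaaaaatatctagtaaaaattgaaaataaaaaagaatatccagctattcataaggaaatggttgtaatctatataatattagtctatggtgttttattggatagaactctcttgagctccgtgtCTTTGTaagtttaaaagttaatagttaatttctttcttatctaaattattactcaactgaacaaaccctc
Gsta3: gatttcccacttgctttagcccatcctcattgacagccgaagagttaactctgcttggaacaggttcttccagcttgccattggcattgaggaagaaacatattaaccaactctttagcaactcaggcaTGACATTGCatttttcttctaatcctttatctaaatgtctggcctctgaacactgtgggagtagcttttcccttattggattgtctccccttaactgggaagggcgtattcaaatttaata
Gstp1: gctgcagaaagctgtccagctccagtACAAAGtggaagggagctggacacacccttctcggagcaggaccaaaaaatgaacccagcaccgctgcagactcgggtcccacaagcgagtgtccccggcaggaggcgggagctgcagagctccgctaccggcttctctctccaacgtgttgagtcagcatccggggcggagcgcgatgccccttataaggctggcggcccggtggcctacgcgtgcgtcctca
Gstm7: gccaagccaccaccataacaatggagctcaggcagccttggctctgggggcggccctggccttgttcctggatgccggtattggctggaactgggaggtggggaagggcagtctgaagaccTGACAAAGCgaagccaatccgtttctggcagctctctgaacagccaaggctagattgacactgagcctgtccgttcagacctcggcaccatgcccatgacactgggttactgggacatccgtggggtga

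Ugt2a3 held 1 SOX match, and Gsta3 held 1 TGACNNNGC match. In Gstm7 the SOX and TGACNNNGC letters shared the stretch TGACAAAGC. Another annotated start of Gstm7, with the window chr3:107931818-107932067, lies farther upstream. Its window held none of the 3 sets of letters, and the stretch TGACAAAGC lies past that start. Neither Ugt2b34, Ugt2b1 nor the window of Sult2a8 held any of the 3 sets of letters. Windows were found for 57 of the 66 members. The SOX letters were in 8 of 57 members (14.0%) against 18.6% of 27025 genes with a window. They were in 6 of 22 members with a window that fell, 0 of 4 that rose, 1 of 12 not called and 1 of 19 below the filter. A gene was counted if any of its windows held the letters. Of these 6, Gstm6 and Gstm7 held them in 1 window each and not in their other windows, which lie farther upstream. In both, the letters therefore lie past another annotated start of the gene. Gstk1, Gstm6 and Gstt1 also fell and held SOX letters in a window not shown, and the member not called was Gstp2. TGACNNNGC was in 3 of 57 members (5.26%) against 11.5% of genes, namely Gsta3, Gstm7 and Gstm5, the last not called. CAAAGTCCA was in 0 of 57 against 0.451%. These are letter matches in short windows, and several members share ancestry and sequence.

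Of the 66 members, 43 had enough counts to be tested, and 30 of those 43 passed the threshold, 5 as higher and 25 as lower in Sox4. Members that passed the filter included 16 UGT, 7 SULT and 20 GST genes. Among them 11 UGT (2 higher, 9 lower), 5 SULT (0 higher, 5 lower) and 14 GST genes (3 higher, 11 lower) were called, beside the 55.1% of all genes called. Changes of at least 2-fold past the threshold were found in 5 UGT (0 higher, 5 lower), 4 SULT (0 higher, 4 lower) and 11 GST genes (3 higher, 8 lower), against 28.4% of all genes (16.5% higher and 11.9% lower). The median log2 fold change was -0.59 over the 16 UGT, -2.40 over the 7 SULT and -0.68 over the 20 GST genes. With library size alone in place of TMM the calls were 4 higher and 7 lower for UGT, 1 higher and 4 lower for SULT and 7 higher and 7 lower for GST, while the share of called genes that were higher went from 52.7% to 79.9% over all genes. The libraries of the groups did not overlap for 12 UGT, 6 SULT and 14 GST genes, against 63.0% of all genes tested.

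**Figure D1:**
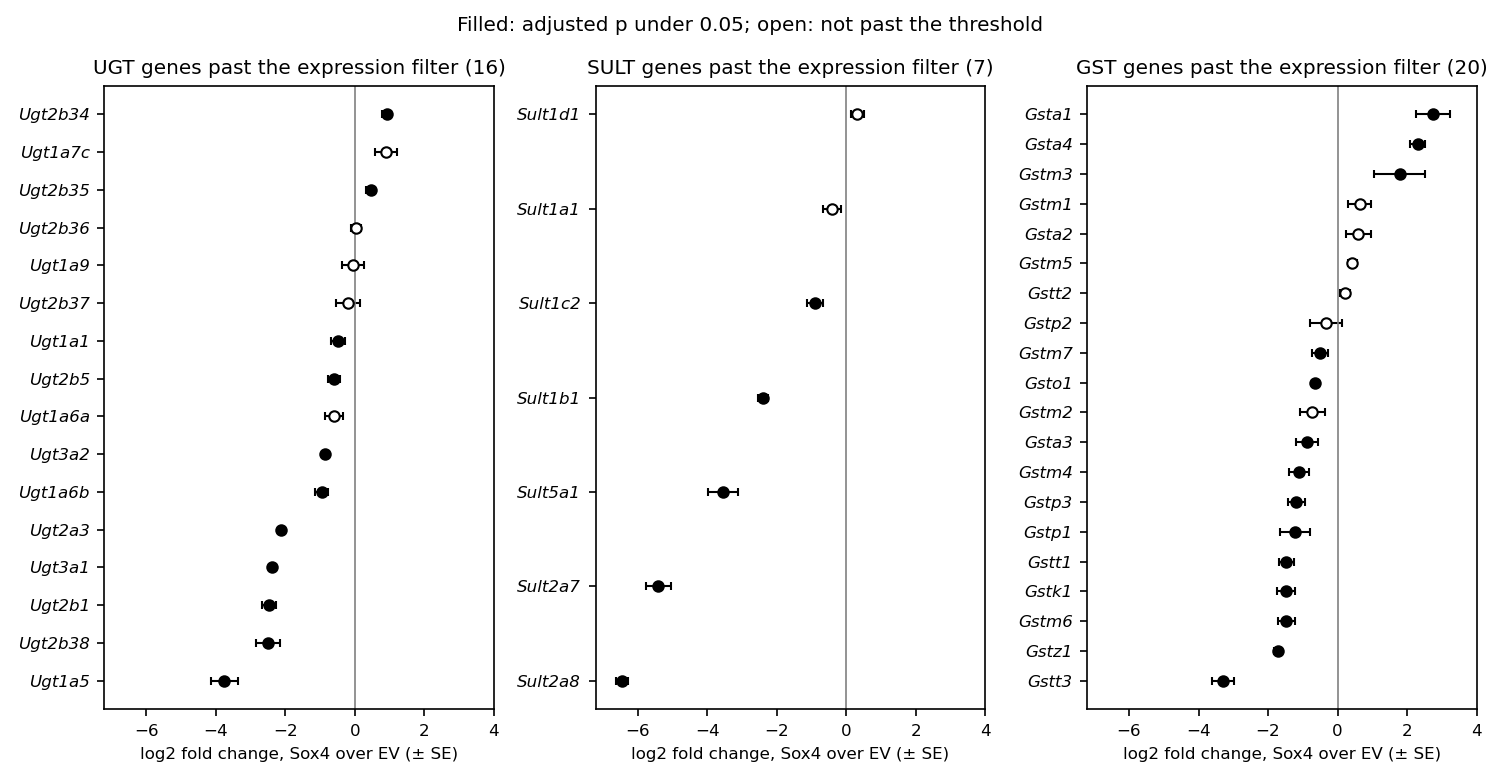
Log2 fold change of Sox4 over EV (horizontal axis) with its standard error for each member past the expression filter, from the edgeR fit across all genes. Filled points passed an adjusted p of 0.05 and open points did not. Most filled points lie left of 0, from Sult2a8 at -6.44 to Gsta1 at 2.74.

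The UGT2B enzymes, which glucuronidate steroids, bile acids and many drugs, were the most abundant UGT group and moved in both directions. Ugt2b1 was 1118, 929.9 and 1087 CPM in EV and 196, 226 and 147 CPM in Sox4. All Sox4 libraries lay below all EV libraries, with a mean 5.52-fold lower (log2 fold change -2.46 ± 0.20, adjusted p = 5.86e-06). Ugt2b34 went the other way, with 639, 631 and 683 CPM in EV and 1104, 1462 and 1116 CPM in Sox4 (log2 fold change 0.91 ± 0.14, adjusted p = 7.93e-04). Ugt2b35 had 549.9, 527 and 624 CPM in EV and 794, 859 and 681 CPM in Sox4 (log2 fold change 0.46 ± 0.12, adjusted p = 0.0224). Both groups of libraries were separate for these genes, although the rise of Ugt2b35 was small and was lost when EV 1, EV 2 or Sox4 2 was left out (log2 fold changes 0.42, 0.39 and 0.38).

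Ugt2b5, the highest UGT gene in EV, was 1524, 1444 and 1792 CPM in EV and 1038, 1257 and 873 CPM in Sox4. Its groups did not overlap (log2 fold change -0.59 ± 0.18, adjusted p = 0.0159), a call lost without EV replicate 3 (-0.51) and with library size alone (-0.12). Ugt2b36 had 865, 894 and 1047 CPM in EV and 985, 1055 and 835 CPM in Sox4, and the libraries of the groups overlapped (log2 fold change 0.04 ± 0.13, adjusted p = 0.860), although library size alone put it past the threshold as higher (0.51). The low-level Ugt2b38 was 8.01, 5.85 and 12.2 CPM in EV and 1.35, 1.94 and 1.32 CPM in Sox4 (log2 fold change -2.49 ± 0.35, adjusted p = 1.59e-04), and it shares 24.2% of its 100-base windows with Ugt2b5, so reads of this pair could be assigned to either. Ugt2b37 stood at 2.03 to 2.85 CPM in EV against 1.40 to 3.14 CPM in Sox4 (log2 fold change -0.19 ± 0.35, adjusted p = 0.686). Counts summed over the 7 Ugt2b genes were 4709, 4436 and 5248 CPM in EV and 4120, 4859 and 3654 CPM in Sox4, and these overlapped (log2 fold change -0.19 ± 0.14, adjusted p = 0.360).

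Ugt2a3, which acts on bile acids, was 353, 371 and 378 CPM in EV and 81.5, 89.9 and 81.7 CPM in Sox4. Its libraries were tight within each group, and the mean was 4.36-fold lower in Sox4 (log2 fold change -2.12 ± 0.06, adjusted p = 1.15e-06). The UGT3A enzymes, which use other UDP sugars than UDP-glucuronic acid, also fell. Ugt3a2 had 431, 456 and 496 CPM in EV and 268, 266 and 239 CPM in Sox4 (log2 fold change -0.84 ± 0.08, adjusted p = 3.68e-04). Ugt3a1 had 63.2, 60.1 and 64.3 CPM in EV and 13.3, 12.3 and 10.7 CPM in Sox4 (log2 fold change -2.37 ± 0.09, adjusted p = 7.68e-07), a larger change in a less abundant gene.

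The Ugt1a genes join alternative first exons to common later exons, and 50.4% to 70.9% of their 100-base windows were shared, so a count for one of them depends on how shared reads were assigned. Summed over 9 Ugt1a genes, which sets aside how reads were split among them (reads dropped as ambiguous are lost to the sum too), the level was 296, 343 and 288 CPM in EV and 186, 231 and 232 CPM in Sox4. The sum fell, with a log2 fold change of -0.51 ± 0.13 (adjusted p = 0.0103). Ugt1a1, the enzyme that conjugates bilirubin, was 88.0, 106 and 106 CPM in EV and 58.8, 68.4 and 88.5 CPM in Sox4. The highest Sox4 library passed the lowest EV library (log2 fold change -0.48 ± 0.19, adjusted p = 0.0270), and the call was lost when EV 2, EV 3, Sox4 1 or Sox4 2 was left out (-0.45, -0.45, -0.35 and -0.44) and with library size alone (-0.0062).

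Ugt1a5 had the largest change of the 16 UGT genes tested, with 19.3, 23.5 and 12.8 CPM in EV and 1.0, 2.04 and 1.06 CPM in Sox4 (log2 fold change -3.75 ± 0.40, adjusted p = 1.63e-05). Ugt1a6b, a phenol-conjugating form, fell from 87.0 to 91.1 CPM in EV to 35.4 to 53.6 CPM in Sox4 (log2 fold change -0.95 ± 0.18, adjusted p = 5.45e-04). Ugt1a9, a further phenol-conjugating form, stood at 67.2 to 119 CPM in EV against 66.6 to 103 CPM in Sox4, with overlap (log2 fold change -0.05 ± 0.31, adjusted p = 0.878). Ugt1a6a (log2 fold change -0.60 ± 0.25, adjusted p = 0.0673) and Ugt1a7c (log2 fold change 0.89 ± 0.32, adjusted p = 0.0720) were below 10 CPM and did not pass the threshold. Ugt1a6a passed without EV replicate 1 (-0.78) and Ugt1a7c with library size alone (1.35). The UGT genes below the filter were Ugt1a2, Ugt1a8, Ugt1a10, Ugt2a1, Ugt2a2 and Ugt8a, with at most 5 counts in a library, and Ugt2a1 and Ugt2a2 had none. Ugt8a makes galactosylceramide for myelin, and Ugt2a1 and Ugt2a2 belong to the olfactory epithelium.

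**Figure D2:**
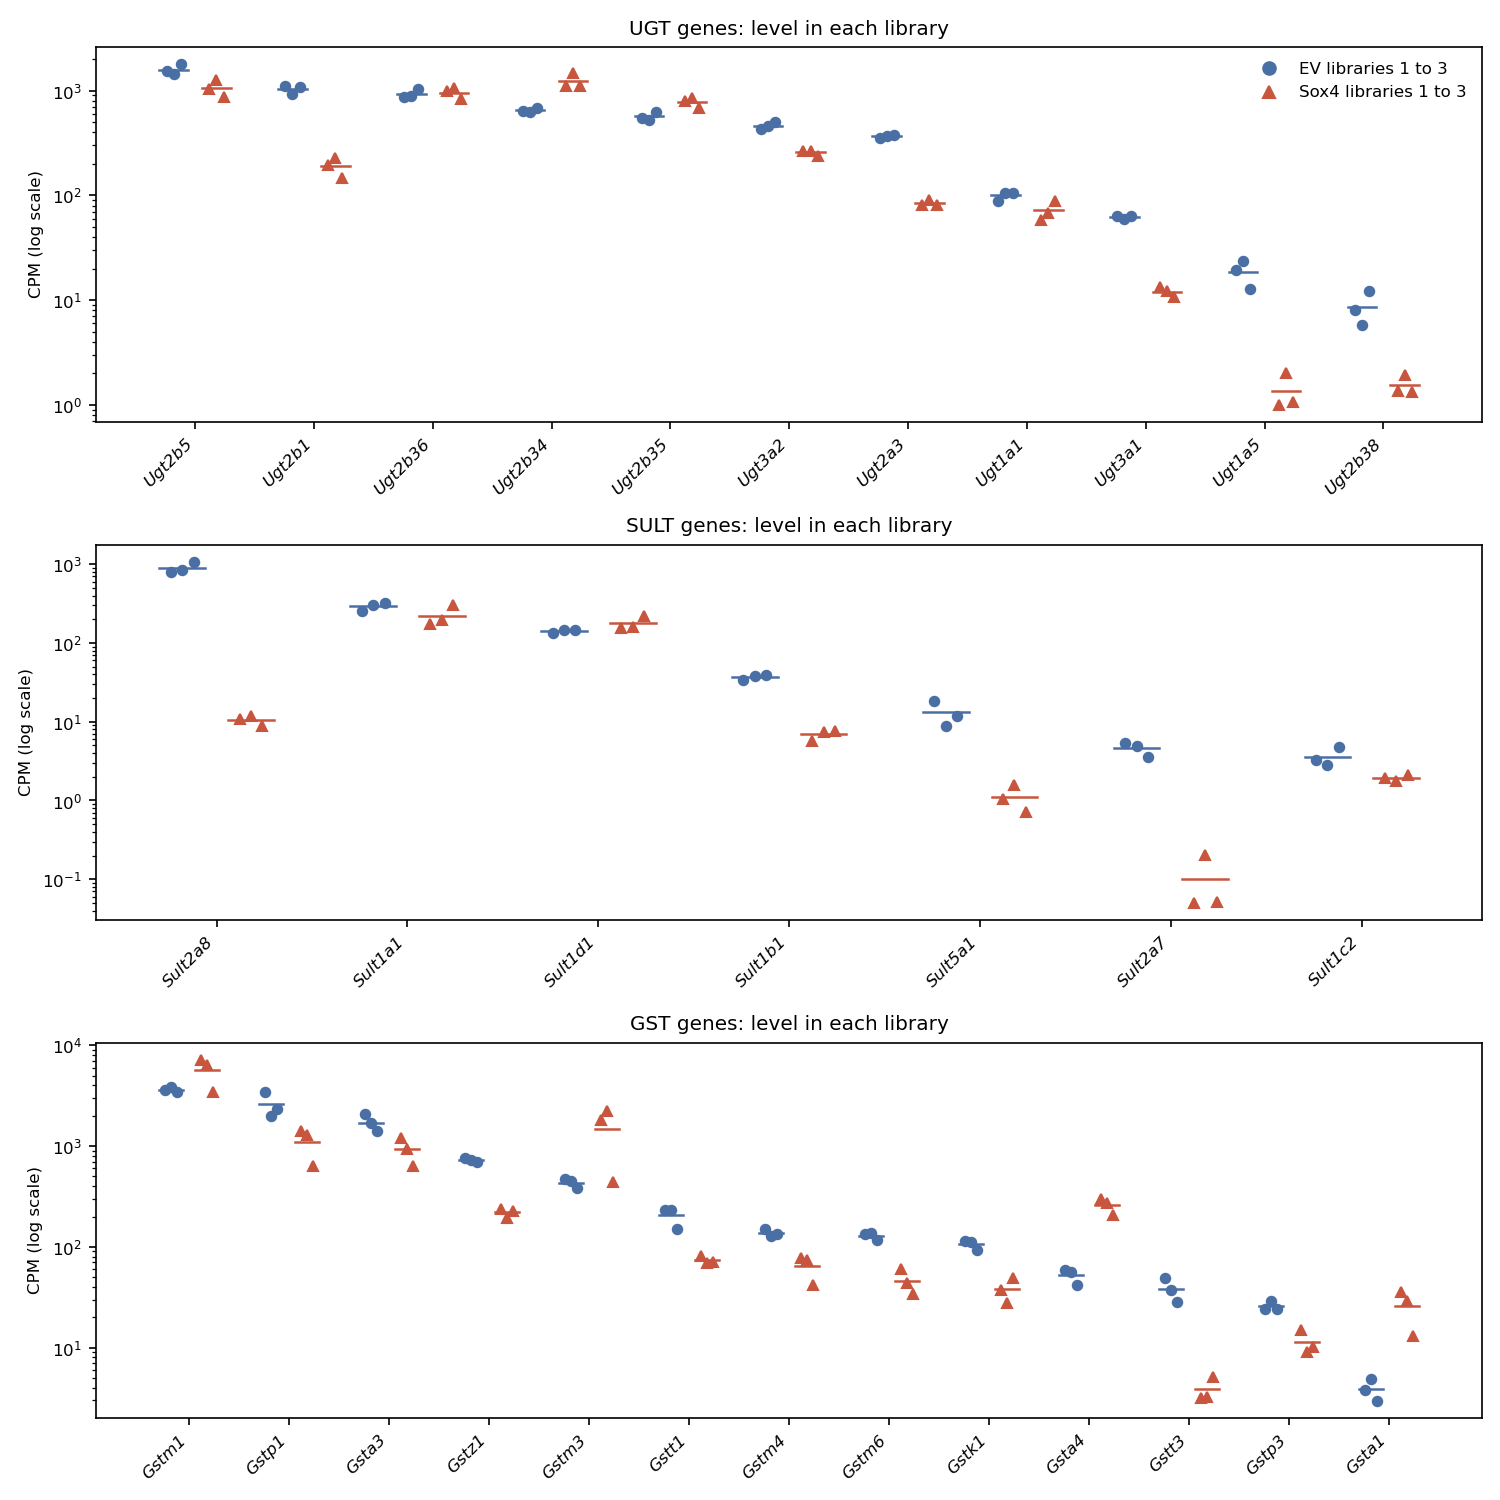
Level in each library (CPM, log scale) of the members among the 8 highest of their family in EV or changed at least 2-fold past the threshold, with circles for EV, triangles for Sox4 and a line at each group mean. The groups stand farthest apart at Sult2a8, from 792 to 1067 CPM in EV to 8.72 to 11.6 CPM in Sox4, and Sox4 replicate 3 lies apart from the other Sox4 libraries at Gstm3.

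Among the sulfotransferases, the SULT2A group had the largest fall of the subfamily sums tested. Sult2a8, a bile acid sulfotransferase of the liver, was the highest SULT gene in EV, at 792, 853 and 1067 CPM in EV and 10.8, 11.6 and 8.72 CPM in Sox4. Every Sox4 library was more than an order of magnitude below every EV library, with means that differed 87.1-fold (log2 fold change -6.44 ± 0.18, adjusted p = 6.80e-08). Its neighbour Sult2a7 had 69, 65 and 49 counts in EV and 1, 4 and 1 counts in Sox4 (log2 fold change -5.40 ± 0.35, adjusted p = 2.04e-05), a fall whose size rests on few counts, and without Sox4 replicate 2 the log2 fold change was -6.30. No 100-base window of Sult2a8 or Sult2a7 was shared with another gene. The other SULT2A genes stayed below the filter, with Sult2a3, Sult2a4, Sult2a5 and Sult2a6 at 0 counts throughout. Sult2a2 had 1, 0 and 0 counts in EV and 0, 0 and 19 in Sox4, and Sult2a1 had 6 counts in Sox4 3 and 0 in the others.

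Sox4 replicate 3 was also the library with the highest counts of female-biased liver genes. Cyp2b13 had 0, 3 and 0 counts in EV and 6, 10 and 460 in Sox4, and A1bg had 4, 2 and 0 against 18, 16 and 215. Of the 6 female-biased genes on the list, 3 could be tested and 2 rose (A1bg and Cux2), beside 29.0% of all genes higher. The call of A1bg was lost without EV replicate 1, 2 or 3 (5.68, 4.73 and 4.14). All 6 male-biased genes fell, beside 26.0% of all genes lower. Among them Cyp4a12a was 384, 185 and 611 CPM in EV and 4.81, 13.4 and 0.507 CPM in Sox4. Of those calls, C6 was lost without EV replicate 1, 2 or 3 or Sox4 replicate 1 (-1.85, -1.93, -1.67 and -2.01) and with library size alone (-1.33). The call of Cyp4a12a was lost without Sox4 replicate 1 (-5.83). With library size alone, 5 male-biased genes were lower and 3 female-biased genes were higher. The part of this pattern in the SULT2A counts was not tested.

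The SULT1 genes did not move together. Sult1a1, the main phenol sulfotransferase, had 258, 307 and 325 CPM in EV and 172, 196 and 302 CPM in Sox4. The groups overlapped (log2 fold change -0.41 ± 0.27, adjusted p = 0.119), and the gene passed the threshold without Sox4 replicate 3 (-0.69, adjusted p = 0.00416) and without the filter (-0.37). Sult1d1, which acts on catecholamines in the mouse, had 132, 146 and 148 CPM in EV and 153, 159 and 222 CPM in Sox4. Its groups did not overlap, yet the change did not pass the threshold (log2 fold change 0.33 ± 0.18, adjusted p = 0.101). It did without Sox4 replicate 1 (0.42), without the filter (0.37) and with library size alone (0.80). With library size alone the log2 fold change of Sult1a1 was 0.060. Sult1b1, which sulfates thyroid hormones, fell, with 33.6, 37.7 and 38.6 CPM in EV and 5.71, 7.51 and 7.65 CPM in Sox4 (log2 fold change -2.40 ± 0.15, adjusted p = 2.59e-06).

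Sult5a1 was 18.5, 8.88 and 12 CPM in EV and 1.05, 1.58 and 0.709 CPM in Sox4, an 11.8-fold difference of means (log2 fold change -3.55 ± 0.43, adjusted p = 3.75e-05). Sult1c2 was near the filter, at 3.24, 2.81 and 4.79 CPM in EV and 1.90, 1.79 and 2.08 CPM in Sox4 (log2 fold change -0.91 ± 0.23, adjusted p = 0.0275), and its call was lost when EV 3, Sox4 1 or Sox4 2 was left out (-0.67, -0.90 and -0.86) and with library size alone (-0.44). The estrogen sulfotransferase Sult1e1 was below the filter at 0.0759 to 0.462 CPM in EV against 0.301 to 0.557 CPM in Sox4. In all, 14 SULT genes were below the filter with at most 19 counts in a library, and 6 of them had no count, which allows up to the floor of 3 counts. Depth therefore does not permit a comparison for these genes, which include the brain form Sult4a1 and the cholesterol sulfotransferase Sult2b1. Such limits speak of counting error alone.

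Among glutathione S-transferases the alpha class divided. Gsta4, which conjugates the lipid peroxidation product 4-hydroxynonenal, was 59.2, 56.9 and 41.6 CPM in EV and 301, 269 and 208 CPM in Sox4. All Sox4 libraries were above all EV libraries, and the mean rose 4.93-fold (log2 fold change 2.30 ± 0.23, adjusted p = 8.79e-06). Gsta1 rose from a low level, with 3.78, 4.86 and 2.98 CPM in EV and 35.9, 28.9 and 13.0 CPM in Sox4 (log2 fold change 2.74 ± 0.49, adjusted p = 6.32e-04). Of its 100-base windows 80.6% were found in other transcripts, 64.7% in the predicted gene Gm3776, which had 47, 30 and 18 counts in EV and 702, 482 and 191 in Sox4 (log2 fold change 3.27, adjusted p = 0.00294), so the level of Gsta1 alone is uncertain. Gsta2 was 26.4 to 45.2 CPM in EV against 36.0 to 68.6 CPM in Sox4 (log2 fold change 0.59 ± 0.36, adjusted p = 0.0901), and passed the threshold without EV replicate 1 or Sox4 replicate 3 (0.78 and 0.82) and with library size alone (1.06).

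Gsta3, the abundant liver form that detoxifies aflatoxin epoxide in mice, fell, with 2056, 1677 and 1393 CPM in EV and 1211, 936 and 640.4 CPM in Sox4 (log2 fold change -0.88 ± 0.31, adjusted p = 0.0114). The groups did not overlap, but the call was lost with library size alone (-0.41). The summed level of the alpha genes, most of it from Gsta3, was 2166, 1775 and 1464 CPM in EV and 1617, 1291 and 897 CPM in Sox4 and did not pass the threshold (log2 fold change -0.51 ± 0.30, adjusted p = 0.0878).

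In the mu class, Gstm1 had the highest level of all members, with 3611, 3867 and 3419 CPM in EV and 7141, 6369.5 and 3437 CPM in Sox4. Sox4 1 and Sox4 2 were above EV and Sox4 3 was not, and the change did not pass the threshold (log2 fold change 0.64 ± 0.33, adjusted p = 0.0537). Without Sox4 replicate 3 it was 0.90 (adjusted p = 8.67e-04), and with library size alone it passed at 1.11. Gstm3 behaved alike, at 472, 448 and 380.0 CPM in EV and 1811, 2218 and 443 CPM in Sox4 (log2 fold change 1.78 ± 0.74, adjusted p = 0.0342). Its level in Sox4 3 was inside the EV range, and the call was lost without any one of EV replicates 1, 2 and 3 and Sox4 replicates 1 and 2 (1.83, 1.79, 1.68, 1.62 and 1.38). Without Sox4 replicate 3 the log2 fold change was 2.22 (adjusted p = 8.37e-06). Gstm3 shares 13.8% of its 100-base windows with other transcripts, 7.43% with the predicted gene Gm8834.

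Other mu genes fell. Gstm6 was 133, 137 and 117 CPM in EV and 60.6, 43.6 and 34.2 CPM in Sox4 (log2 fold change -1.48 ± 0.25, adjusted p = 1.86e-04), and Gstm4 was 150.1, 129 and 135 CPM in EV and 77.1, 74.0 and 41.8 CPM in Sox4 (log2 fold change -1.10 ± 0.29, adjusted p = 0.00215). For both, every Sox4 library was below every EV library. Gstm7 was 71.8 to 88.5 CPM in EV against 46.4 to 75.0 CPM in Sox4 (log2 fold change -0.50 ± 0.23, adjusted p = 0.0423), a call that was lost when EV 1, EV 2, Sox4 2 or Sox4 3 was left out (-0.44, -0.51, -0.36 and -0.40) and with library size alone (-0.026). Gstm2 at 66.4 to 90.0 CPM in EV against 29.0 to 62.9 CPM in Sox4 (log2 fold change -0.72 ± 0.37, adjusted p = 0.0507) and Gstm5 at 8.01 to 8.81 CPM in EV against 9.92 to 13.3 CPM in Sox4 (log2 fold change 0.42 ± 0.13, adjusted p = 0.0586) did not pass, and their groups did not overlap. Gstm2 passed when EV 3, Sox4 1 or Sox4 3 was left out (-0.86, -0.95 and -0.45), and Gstm5 without Sox4 replicate 1 (0.51) and with library size alone (0.89). The summed mu level was 4554, 4757 and 4198 CPM in EV and 9239, 8814 and 4043 CPM in Sox4 (log2 fold change 0.71 ± 0.39, adjusted p = 0.0572).

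The pi and theta classes were lower where they were called. Gstp1, abundant in male mouse liver, had 3436, 2001 and 2354 CPM in EV and 1425, 1273 and 627 CPM in Sox4 (log2 fold change -1.23 ± 0.44, adjusted p = 0.0103), and the call was lost with library size alone (-0.76). Gstp2 shares 41.6% of its windows with Gstp1 and stood at 4.18 to 7.32 CPM in EV against 2.48 to 6.62 CPM in Sox4 (log2 fold change -0.34 ± 0.46, adjusted p = 0.436), while the sum of the pi genes fell (-1.23 ± 0.43, adjusted p = 0.00999). Gstp3 was 24.4, 29.2 and 24.3 CPM in EV and 15.1, 8.99 and 10.2 CPM in Sox4 (log2 fold change -1.18 ± 0.24, adjusted p = 7.58e-04). Gstt1, which acts on small halogenated compounds, was 234, 229.8 and 152 CPM in EV and 81.0, 69.8 and 71.0 CPM in Sox4 (log2 fold change -1.47 ± 0.21, adjusted p = 8.10e-05). Gstt3 fell most among the GST genes, from 49.2, 37.4 and 28.2 CPM in EV to 3.16, 3.27 and 5.17 CPM in Sox4 (log2 fold change -3.31 ± 0.32, adjusted p = 1.06e-05). Gstt2 was 47.2 to 56.2 CPM in EV against 51.4 to 66.3 CPM in Sox4 (log2 fold change 0.22 ± 0.14, adjusted p = 0.189), and passed without Sox4 replicate 1 (0.33) and with library size alone (0.69).

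Gstz1 is also maleylacetoacetate isomerase, an enzyme of tyrosine breakdown. It was 766, 727 and 697 CPM in EV and 239.8, 194 and 228 CPM in Sox4, a 3.31-fold difference with little spread in either group (log2 fold change -1.73 ± 0.10, adjusted p = 8.00e-06). Gstk1, a form of mitochondria and peroxisomes, was 114, 111 and 93.2 CPM in EV and 37.4, 27.8 and 49.2 CPM in Sox4 (log2 fold change -1.48 ± 0.25, adjusted p = 1.95e-04). Gsto1, an omega form with thiol transferase activity, fell from 89.4 to 91.3 CPM in EV to 50.5 to 63.7 CPM in Sox4 (log2 fold change -0.64 ± 0.10, adjusted p = 0.00120), a call lost with library size alone (-0.17). Gsta5, Gsto2 and Gstt4 were below the filter with at most 6 counts in a library.

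Counts were summed over subfamilies to set aside how reads were split inside them. Of 23 groups 17 could be tested, of which 0 were higher, 12 were lower and 5 did not pass. Over all genes 55.1% were called, 29.0% as higher and 26.0% as lower. Among the lower groups, Gstk, Gstz, Sult1b and Sult5a hold 1 gene each. Gsto, Sult1c and Ugt2a hold 1 gene past the filter, so these sums add little to the values of single genes. The groups that did not pass were Gsta, Gstm, Sult1a, Sult1d and Ugt2b. The summed Sult2a level was 797, 858 and 1071 CPM in EV and 10.9 ± 0.91 CPM (SD, n = 3) in Sox4 (log2 fold change -6.38 ± 0.15, adjusted p = 4.27e-08).

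Shares of a family's counts within a library do not depend on how libraries are scaled. Sult2a8 held 64.4% ± 2.10 of SULT counts in EV and 2.60% ± 0.87 in Sox4 (SD, n = 3). Over the same comparison the share of Sult1a1 went from 21.2% ± 1.19 to 52.3% ± 2.82 and that of Sult1d1 from 10.2% ± 0.83 to 42.4% ± 1.87. None of these 3 shares overlapped between groups. In the UGT family Ugt2b1 went from 17.4% ± 1.46 to 3.94% ± 0.39 and Ugt2b34 from 10.9% ± 0.30 to 25.6% ± 1.71, and Ugt2b5 held 26.4% ± 1.14 and 22.0% ± 1.18. In the GST family Gstm1 went from 36.1% ± 4.15 to 55.5% ± 1.40, Gstp1 from 25.3% ± 4.76 to 10.8% ± 0.41 and Gstz1 from 7.23% ± 0.50 to 2.42% ± 1.16. Gstm3 held 4.10% to 4.57% in EV and 14.2%, 18.8% and 7.31% in the Sox4 libraries, above EV in each. Shares of one family sum to a whole, so a fall of one member raises the others.

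**Figure D3:**
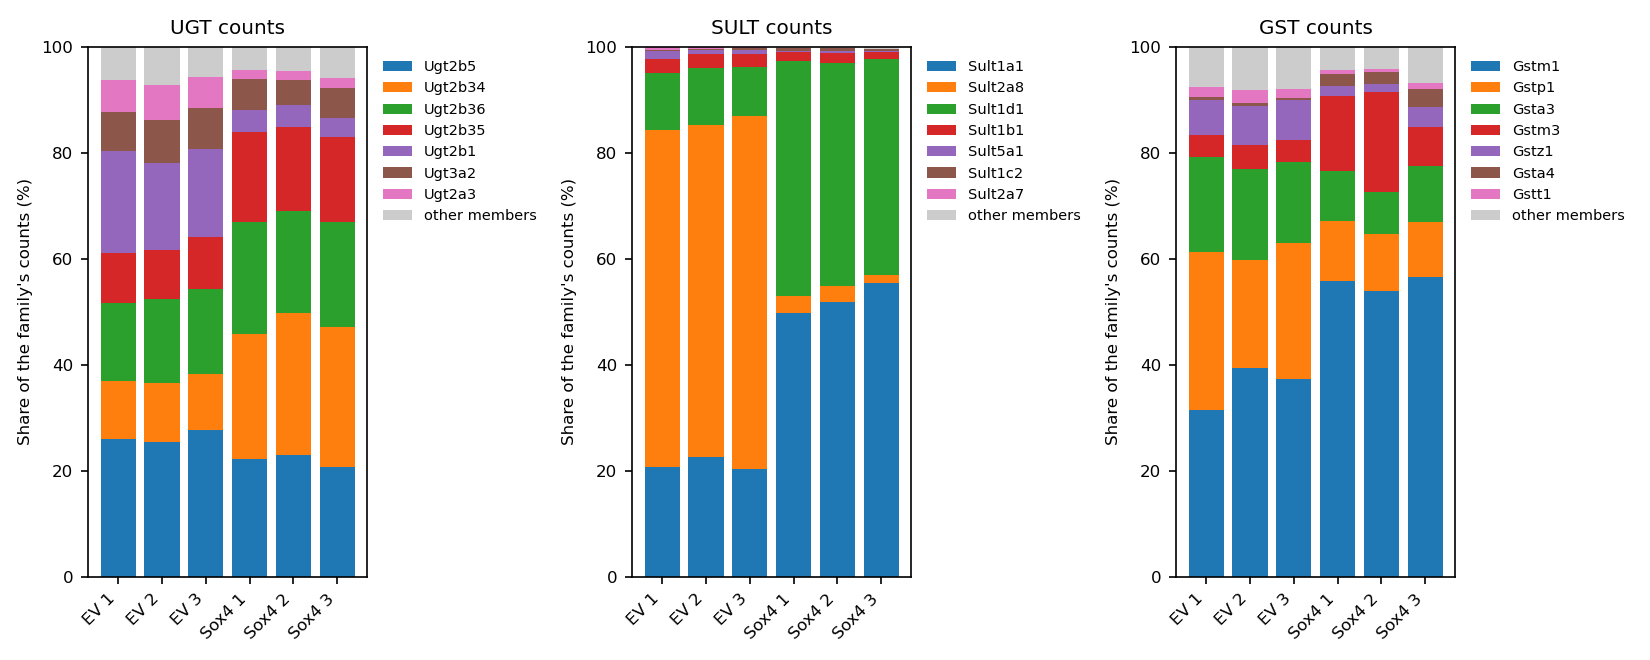
Share of each family's counts (percent) held by its most abundant members in every library. The share of Sult2a8 falls from 62.7% to 66.7% in the EV libraries to 1.60% to 3.13% in the Sox4 libraries, while those of Sult1a1 and Sult1d1 are larger.

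Summed over all members, the UGT level was 5850.4, 5665 and 6474 CPM in EV and 4668, 5461 and 4220 CPM in Sox4, a ratio of 0.798. The SULT level was 1244, 1359 and 1599 CPM in EV and 345, 378 and 545 CPM in Sox4, a ratio of 0.302. In both families the groups did not overlap, and the exact permutation test (two-sided) gave p = 0.1, the smallest that 3 libraries against 3 allow. For UGT the log2 ratio of -0.33 turned to 0.14 with library size alone, and for SULT it went from -1.73 to -1.26. The GST level was 11491, 9808 and 9164 CPM in EV and 12774, 11808 and 6066 CPM in Sox4, with overlap (exact permutation p = 1). Gstm1 and Gstm3 make up much of the distance between Sox4 3 and the other Sox4 libraries, at 3437 and 443 CPM against 6370 to 7141 CPM and 1811 to 2218 CPM.

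**Figure D4:**
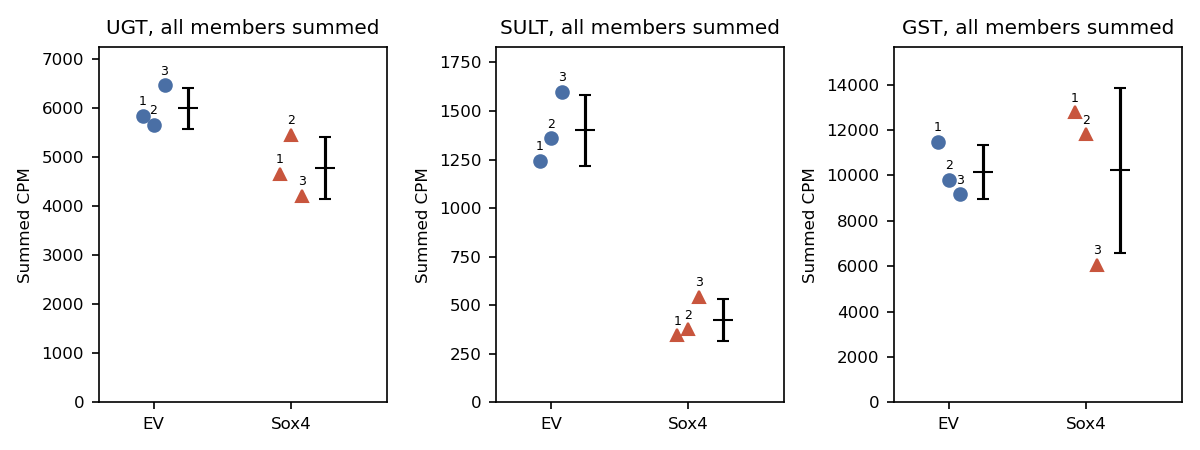
CPM summed over all members of a family in each library (numbered points; circles EV, triangles Sox4), with the mean and SD (n = 3) beside them. SULT sums are 1244 to 1599 in EV and 345 to 545 in Sox4, and Sox4 3 is the lowest point of the GST family.

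Levels were also divided by the length in kilobases of all annotated exon bases of a gene. The order of genes on this measure depends on the annotated lengths. Gsta3, at a mean of 1709 CPM in EV but with 4344 exon bases, stood at 393 CPM per kb. On this measure the highest members in EV were Gstm1 (2466 CPM per kb), Gstp1 (1678), Ugt2b5 (854), Ugt2b36 (454) and Ugt2b1 (406). Sult2a8, the highest SULT gene, stood at 275 CPM per kb. In Sox4 the highest were Gstm1 (3835), Gstm3 (1137), Gstp1 (716), Ugt2b5 (568) and Ugt2b36 (465), and Sult2a8 was at 3.16 CPM per kb. The place of Gstm3 rests on Sox4 1 and Sox4 2 (1381 and 1692 CPM per kb), and in Sox4 3 it stood at 338 CPM per kb, below Ugt2b5 (470), Ugt2b36 (405) and Gstp1 (405). Lengths came from GENCODE M21, which held 65 of the 66 members.

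Members of these families lie in clusters, and members next to each other in order differed in direction in several places. The order is among members alone, and other genes between them were left out. In GRCm38.p6 gene order the UGT2 cluster ran Ugt2b34 (higher), Ugt2b1 (lower), Ugt2b35 (higher), Ugt2b36 (not called), Ugt2b5 (lower), Ugt2b37 (not called), Ugt2a3 (lower) and Ugt2b38 (lower). In the mu cluster Gstm3 (higher) stood between Gstm6 (lower) and Gstm2 (not called), with Gstm7 lower on the far side of Gstm6 and Gstm4 lower at the end. Gsta4 and Gsta1 were both higher and lay beside Gsta2, which was not called, and Gsta3 (lower) was on another chromosome. The directions of Ugt2b35, Gstm3 and Gstm7 carry the limits given above.

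**Figure D5:**
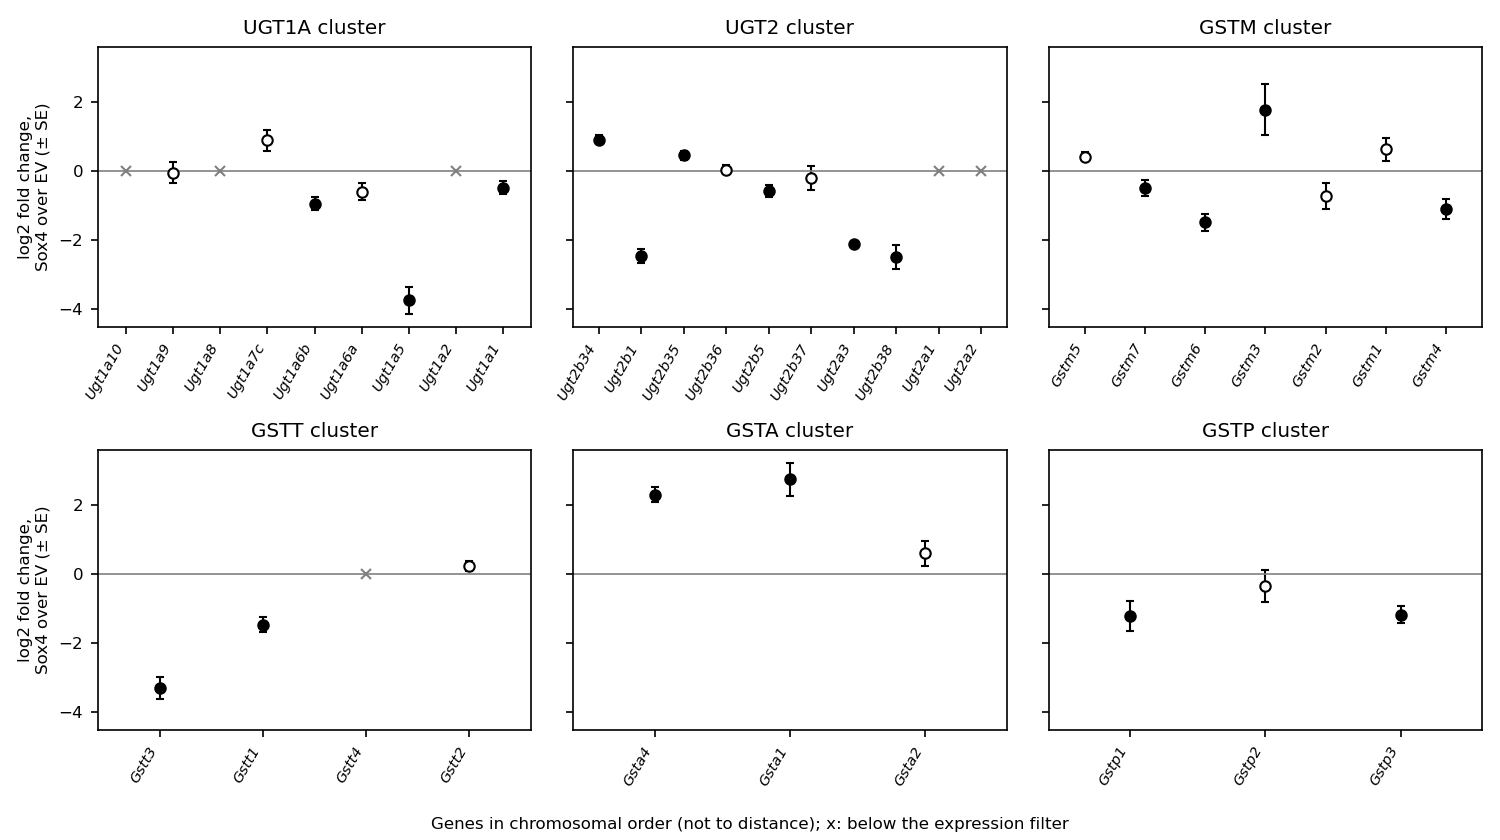
Log2 fold change of Sox4 over EV (± SE) for members in chromosomal order within 6 clusters, with filled points past an adjusted p of 0.05, open points not past it, and crosses, drawn at 0 with no value, for members below the filter. In the UGT2 cluster Ugt2b34 at 0.91 is followed by Ugt2b1 at -2.46 and Ugt2b35 at 0.46.

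The enzymes and carriers that supply the donors changed in part, read against the 55.1% of all genes called. For UDP-glucuronic acid, 1 of 3 genes fell, Ugp2, which makes UDP-glucose (log2 fold change -0.69 ± 0.13, adjusted p = 0.00244), a call lost with library size alone (-0.22), while Ugdh, which oxidises it, did not pass (log2 fold change -0.47 ± 0.24, adjusted p = 0.0560) but did without Sox4 replicate 1 (-0.66). For PAPS, 4 of 8 genes fell and 1 rose, against 3 lower and 3 higher with library size alone. The PAPS synthases moved apart, with Papss2 at 226, 196 and 187 CPM in EV and 59.2, 64.2 and 63.4 CPM in Sox4 (log2 fold change -1.71 ± 0.09, adjusted p = 3.80e-06) and Papss1 higher (log2 fold change 0.68 ± 0.18, adjusted p = 0.00486). Suox, which makes sulfate from sulfite (log2 fold change -1.87 ± 0.17, adjusted p = 7.40e-06), the sulfate carrier Slc26a1 (log2 fold change -1.33 ± 0.15, adjusted p = 5.53e-05) and Bpnt1, which removes the spent cofactor (log2 fold change -0.61 ± 0.13, adjusted p = 0.00233), fell, the last of them not past the threshold with library size alone (-0.15).

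Of 11 genes of glutathione synthesis, 3 rose and 6 fell, against 5 higher and 4 lower with library size alone. Over all genes 29.0% were higher and 26.0% lower. Among the 6, Cbs was lost when EV 1, EV 2, Sox4 2 or Sox4 3 was left out (-0.41, -0.48, -0.35 and -0.47) and Ggct without EV replicate 3 or Sox4 replicate 2 (-0.53 and -0.49). Those that fell included Mat1a, which makes S-adenosylmethionine, at 4226, 4539 and 3986 CPM in EV and 655, 496 and 1047 CPM in Sox4 (log2 fold change -2.54 ± 0.32, adjusted p = 4.22e-05), and Cth, which makes cysteine (log2 fold change -1.47 ± 0.40, adjusted p = 0.00248). The genes that rose were Gss, glutathione synthetase (log2 fold change 0.54 ± 0.09, adjusted p = 0.00278), Gsr, glutathione reductase (log2 fold change 0.47 ± 0.16, adjusted p = 0.0176, lost without EV replicate 2 at 0.42 or Sox4 replicate 2 at 0.42), and the cystine carrier Slc7a11, at 0 counts in EV and at least 4.03-fold above the mean EV floor in Sox4. Neither subunit of the rate-limiting ligase passed, Gclc (log2 fold change 0.50 ± 0.25, adjusted p = 0.0634) or Gclm (log2 fold change 0.23 ± 0.06, adjusted p = 0.132), although Gclc did without Sox4 replicate 3 (0.68) and both did with library size alone (0.97 and 0.70). Of 8 genes that turn glutathione conjugates into mercapturates, 5 could be tested and 3 fell, Ggt6, Acy1 and Acy3.

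Of 9 conjugate transporters, 8 could be tested, of which 3 rose and 5 fell, beside 29.0% higher and 26.0% lower over all genes. Abcc2, the pump that exports conjugates to bile, was 999, 918 and 1007 CPM in EV and 2000.0, 1987 and 1595 CPM in Sox4 (log2 fold change 0.93 ± 0.12, adjusted p = 5.76e-04), and Abcc4, an export pump toward blood, was 0.616, 1.75 and 0.363 CPM in EV and 35.8, 32.2 and 32.0 CPM in Sox4 (log2 fold change 5.19 ± 0.58, adjusted p = 6.74e-06). Another such pump, Abcc3, fell (log2 fold change -1.30 ± 0.18, adjusted p = 1.31e-04), as did Abcg2 (log2 fold change -1.48 ± 0.11, adjusted p = 9.35e-06). Of the uptake carriers Slco1a4 rose (log2 fold change 2.51 ± 0.32, adjusted p = 4.33e-05), while Slco1a1 (log2 fold change -5.21 ± 0.25, adjusted p = 3.69e-07), Slco2b1 (log2 fold change -4.21 ± 0.18, adjusted p = 2.16e-07) and Slco1b2 (log2 fold change -2.07 ± 0.17, adjusted p = 9.35e-06) fell.

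Among 14 conjugating enzymes of other families, 2 rose and 11 fell, beside 29.0% higher and 26.0% lower over all genes. Of those that fell, Nat2 was lost without any 1 of EV replicates 1, 2 and 3 and Sox4 replicates 2 and 3 (-0.44, -0.49, -0.43, -0.35 and -0.43). Mgst1, the abundant microsomal GST, was 3570.0, 3252 and 3274 CPM in EV and 1391, 1217 and 1153 CPM in Sox4 (log2 fold change -1.42 ± 0.09, adjusted p = 4.03e-05). The methyltransferases Gnmt (log2 fold change -2.63 ± 0.35, adjusted p = 5.91e-05) and Inmt (log2 fold change -2.79 ± 0.26, adjusted p = 6.94e-06) and the bile acid conjugating enzyme Baat (log2 fold change -2.59 ± 0.21, adjusted p = 4.03e-06) fell, and the thiopurine methyltransferase Tpmt rose (log2 fold change 1.33 ± 0.07, adjusted p = 9.35e-06). Mgst2 was at 0 counts in EV and at least 8.73-fold above the mean EV floor in Sox4, at 1.52 to 2.76 CPM.

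Known regulators of these families were also read out, with 3 of 16 tested higher and 10 lower, or 4 higher and 5 lower with library size alone. These and the NRF2 targets below stand beside 29.0% higher and 26.0% lower over all genes. Nfe2l2, which encodes NRF2, was 119.6, 108 and 113 CPM in EV and 251, 259 and 276 CPM in Sox4 (log2 fold change 1.21 ± 0.06, adjusted p = 2.13e-05), and Ahr was higher too (log2 fold change 0.93 ± 0.13, adjusted p = 2.38e-04). Nr1i3, the xenobiotic receptor CAR, was 32.7, 30.9 and 24.2 CPM in EV and 7.37, 6.38 and 7.45 CPM in Sox4 (log2 fold change -2.05 ± 0.15, adjusted p = 7.64e-06), and its partner Rxra (log2 fold change -1.19 ± 0.15, adjusted p = 1.33e-04), the glucocorticoid receptor Nr3c1 (log2 fold change -1.52 ± 0.05, adjusted p = 3.23e-06) and the NRF2 inhibitor Keap1 (log2 fold change -0.75 ± 0.21, adjusted p = 0.00409) fell, Keap1 not past the threshold with library size alone (-0.28). Nr1i2, the receptor PXR, did not pass (log2 fold change 0.11 ± 0.16, adjusted p = 0.512), but was past the threshold as higher with library size alone (0.59). Of 10 reference targets of NRF2, 7 rose and 0 fell, with Nqo1 at 18, 15.9 and 17.4 CPM in EV and 73.7, 85.7 and 51.7 CPM in Sox4 (log2 fold change 2.04 ± 0.22, adjusted p = 1.59e-05) and Txnrd1 at 245, 225 and 237 CPM in EV and 721, 594 and 572 CPM in Sox4 (log2 fold change 1.42 ± 0.11, adjusted p = 2.67e-05). Of the 20 GST genes tested, 3 were higher, Gsta4, Gsta1 and Gstm3, the last with the limits given above. The 11 that were lower included Gsta3, Gstm4 and Gstm6. Whether these regulators had a part in the changes of the members was not tested.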

How the data were processed

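RNA of hepatocytes from 6 samples (3 EV, 3 Sox4, grouped by their labels) was sequenced. Per the labels, the authors aligned reads with STAR 2.7.10b to GRCm39 and used featureCounts 2.0.1 to obtain the deposited raw counts per gene, which are the values used here. The annotation release, strand setting and treatment of reads with several positions are not given in the sources used here. A table of normalized values was not used. In R 4.3.3, genes were kept by filterByExpr (minimum count 10, minimum total 15), scaled by TMM and compared by the edgeR 4.0.16 quasi-likelihood F test with no covariate, with Benjamini-Hochberg adjustment over all 12691 genes and a threshold of 0.05. The SE is that of the difference of mean log2 CPM with a prior count of 2. The test was checked on simulated counts. These had far fewer changed genes than the data and the same dispersion for every gene, so the check does not cover this setting. Libraries of a group differed beyond counting noise (chi-square per degree of freedom 12.3 to 43.4).

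Every member may be named. Values per library are given for those among the 8 highest of a family in EV, or past the threshold with a 2-fold change. The members and gene lists were chosen with earlier results of these data known. Alternatives were DESeq2 1.42.0 as test or size factors, limma 3.58.1 voom, library size alone, other filters, a replicate block and leaving out each library. Leaving out libraries for the listed genes was chosen after seeing the data. Shared sequence was the share of 100-base windows of a gene found in other GENCODE M21 transcripts. Some genes of the lists are counted but not reported here by name.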

Additional observations from a re-analysis of the deposited data

How the results depend on the processing

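The number of genes called ranged from 5937 (mean count of at least 50) to 8092 (library size alone), beside 6990. UGT calls ranged from 9 to 11, GST calls from 12 to 17 and subfamily calls from 10 to 16 over all alternatives. SULT calls were 8 without the filter and 3 at a mean count of 50 or more, beside 5. Leaving out 1 library gave 6027 to 7269 genes, 9 to 11 UGT, 4 to 6 SULT, 12 to 16 GST and 11 to 14 subfamily calls. With library size alone, the log2 ratio of summed UGT was 0.14 and that of SULT -1.26, and 0 of the UDP-glucuronic acid genes were called. That scaling also turned Gstp2 to 0.12, Sult1a1 to 0.060, Ugt1a9 to 0.42, Ugt2b37 to 0.28, Arnt to 0.059 and Nat2 to 0.032, and 23 of its 30 member calls were shared with TMM. Of the 43 members tested, those that gained a call were Gsta2, Gstm1, Gstm5, Gstt2, Sult1d1, Ugt1a7c and Ugt2b36 with library size alone, Gsta2, Gstm1, Gstm2, Sult1a1 and Sult1d1 without the filter, Gstm1 and Gstm5 at a mean count of 50 or more, and Gstm2 with limma voom or DESeq2 size factors. Without 1 library, Ugt2b36 ranged from -0.036 to 0.13, Ugt1a9 from -0.25 to 0.16 and Ugt2b37 from -0.59 to 0.029. None of these members passed under TMM, whereas Arnt and Nat2 did. Of 555 member values, 482 kept direction and side of the threshold, 34 gained and 29 lost the threshold and 10 turned. With DESeq2 as the test, 33 members were called, Gsta2, Gstm1 and Gstm2 in addition. Of 64 listed genes past the threshold, 15 lost it or turned with library size alone or without 1 library. The causes were not tested. At this depth, 23 members could not be compared.

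The labels give both groups replicate numbers. Deviations from the group mean correlated at 0.27, -0.09 and 0.13 between same-numbered libraries. Libraries with different numbers were not compared in this way, so these values do not settle whether the numbers mark a pairing. A fit with the replicate number as a block called 7362 genes, with 11 UGT, 6 SULT, 16 GST and 15 subfamily calls and 29 of 33 member calls shared. Gstm3 lost its call (1.51), and Gstm1, Gstm2, Gsta2 and Sult1a1 gained one.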

Other observations

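Relatives outside the symbol rule were read in the same fit. Gstcd, a gene with a GST-like C-terminal domain, was 6.40, 7.14 and 6.03 CPM in EV and 12.1, 10.5 and 8.01 CPM in Sox4 (log2 fold change 0.65 ± 0.19, edgeR adjusted p = 0.0201). The pseudogene Gstp-ps was 5.01 to 11.6 CPM in EV against 1.82 to 5.01 CPM in Sox4 (-1.19 ± 0.54, adjusted p = 0.0318), in the direction of Gstp1. The pseudogene Gstm2-ps1 had 158, 134 and 131 counts in EV and 504, 703 and 193 in Sox4, with the lowest Sox4 value in the library where Gstm1 and Gstm3 were also lowest, and did not pass (1.15 ± 0.57, adjusted p = 0.0607).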
